A study of Mus musculus with 60 samples.

Results

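Whole blood from mice given BIO 300 at 100 mg/kg and sampled on Day 0 (dosing had ended 24 h earlier) was compared with whole blood from vehicle-treated mice of the same day. The members were chosen by their labels: the 6 mice of the BIO300-Med Day 0 group (animals 7 to 12) and the 6 mice of the Vehicle Day 0 group (animals 13 to 18), 12 of the 60 samples of the series. BIO 300 is a powder of synthetic genistein, the soy isoflavone, dispersed in a polymer, and the vehicle was water with methylcellulose and polyvinylpyrrolidone. All were male CD2F1 mice, 5 to 6 weeks old when purchased and housed 3 per cage, gavaged for 6 days with 2 doses per day. None of the 12 was irradiated, and each was bled once, from the inferior vena cava under isoflurane, so that the samples are separate animals of 1 sex. RNA sequencing (RNAseq) of whole blood measures all circulating cells at once, and in such bulk samples fewer cells of a type and less RNA per cell cannot be told apart.

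Most RNA in whole blood comes from red cells still maturing (reticulocytes), which carry the haemoglobin and haem synthesis transcripts, and from platelets, neutrophils, monocytes and lymphocytes. Neutrophils are short-lived cells that store antimicrobial granules and leave the blood for sites of injury, while monocytes comprise a classical type and a patrolling type that moves along the vessel wall. Genes known from hepatocytes, such as that of albumin, were described apart, although some of them are also expressed by blood cells. The red cell, platelet, neutrophil, monocyte, B cell and T cell markers were all present in all 12 libraries. Total counts ranged from 20432206 to 26407081 at 100 mg/kg and from 15099415 to 25211167 with vehicle, with mouse 16 (vehicle) the lowest. Total counts, genes detected and the share of counts on the 10 top genes gave 2-sided exact permutation p of 0.952, 0.831 and 0.998 (0.998 each after Benjamini-Hochberg adjustment over these 3 tests), where the smallest p that 6 against 6 mice allow is 0.00216.

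In 2 libraries, transcripts of liver stood out. All 22 genes of a hepatocyte list exceeded 10 CPM (counts scaled to library size, with TMM factors from the 12 mice) in mouse 9 (100 mg/kg) and in mouse 17 (vehicle), and in the other 10 mice only Hp did. Hp encodes haptoglobin, which binds free haemoglobin and which neutrophils make as well. Alb (ENSMUSG00000029368, GRCm38 chromosome 5, 90460897 to 90476602), which encodes albumin, reached 7588 CPM in mouse 17 against 1275 CPM in mouse 9. The other 5 mice at 100 mg/kg had at most 6.14 CPM (mouse 11), the other 5 vehicle-treated mice at most 1.41 CPM, and mice 7, 8 and 18 had 0. Apob, the apolipoprotein of very-low-density lipoprotein, followed with 2908 CPM in mouse 17 and 372 CPM in mouse 9. Cps1, the entry enzyme of the urea cycle, was at 937 and 183 CPM in these mice, Cyp3a11, a drug-metabolising cytochrome, at 1509 and 339 CPM, and Serpina3k, a secreted protease inhibitor, at 1735 and 350 CPM.

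The hepatocyte list took 1.94% of all counts in mouse 17 and 0.639% in mouse 9. Mouse 17 exceeded mouse 9 by a median ratio of 4.94 over the 22 genes, with a range of 3.34 (Cyp2e1) to 11.4 (Fga). The ratios of the 3 fibrinogen chain genes Fga (11.4), Fgb (10.7) and Fgg (10.4), which encode the clotting protein, were the 3 highest of the list. Mouse 17 is a vehicle-treated mouse, and thus the hepatocyte list had a median log2 fold change of -2.26 for 100 mg/kg against vehicle, with 22 of 22 members lower in mean and none with an unadjusted p under 0.05. Without mouse 17 the median was 8.10, and without mice 9 and 17 it was 1.36 over the 20 members still tested. Alb turned from -2.56 (standard error 2.93) to 1.90 without both mice, and Apob from -2.95 (2.79) to 2.03. The direction of the list's median thus depended on which of the 2 mice was in the fit, and results on blood cells are given with and without them.

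**Figure D1:**
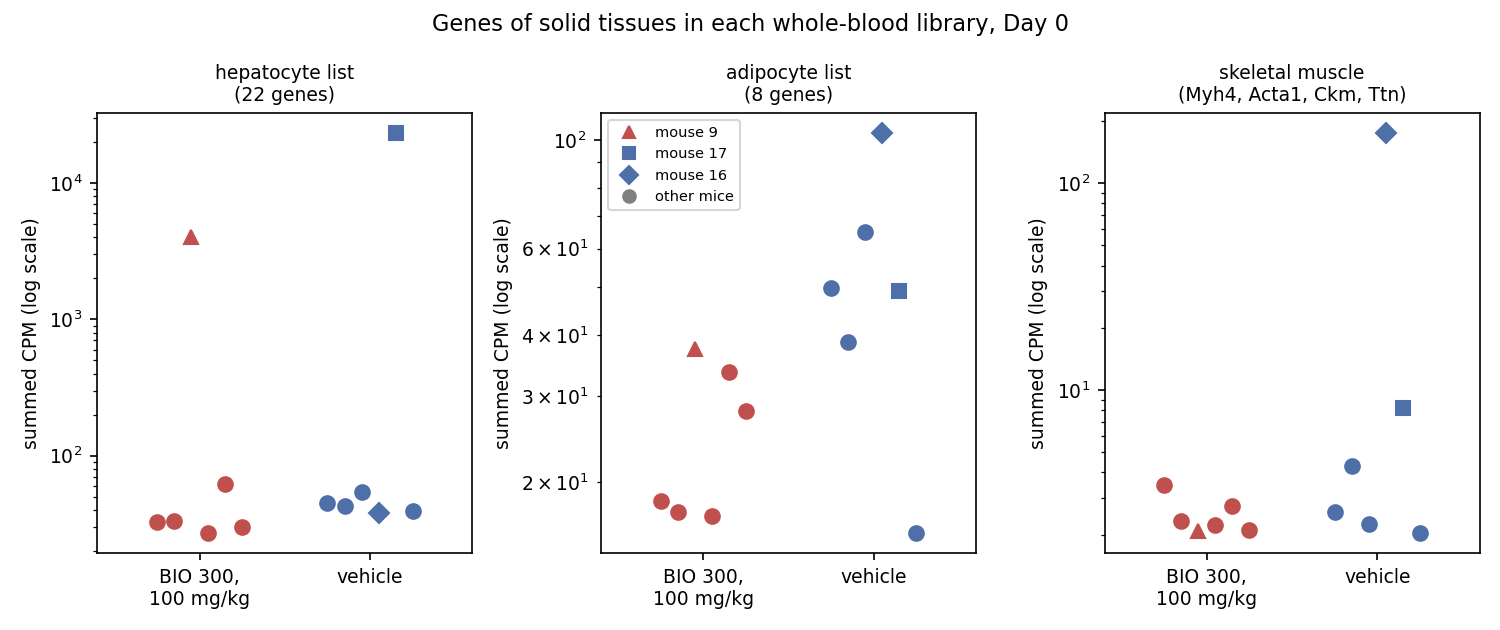
Summed CPM (log scale) of the 22 hepatocyte genes, the 8 adipocyte genes and 4 skeletal muscle genes in each mouse, with 6 mice per group. Mice 9 and 17 stand apart for hepatocyte genes and mouse 16 for muscle genes, while adipocyte genes form a gradient from 15.7 CPM (mouse 18) to 103 CPM (mouse 16).

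The question of the comparison was whether BIO 300 at 100 mg/kg alters the blood transcriptome 24 h after dosing. No gene was called at this dose: edgeR's quasi-likelihood test found 0 differentially expressed genes (DEGs, adjusted p under 0.05 and absolute log2 fold change over 1) among 24000 genes tested (0% called), and the lowest adjusted p was 0.368. Before adjustment 726 genes (3.02%) had a p under 0.05, of which 271 were higher (1.13%) and 455 lower (1.9%) at 100 mg/kg. DESeq2's Wald test called 2 genes (0.00873%), Crispld2 and Fabp3, both lower. Without mice 9 and 17 the edgeR count remained 0, and 353 genes were higher (1.56%) and 449 lower (1.98%) at an unadjusted p under 0.05. Without mouse 17 alone the balance was the other way, with 732 higher (3.11%) and 352 lower (1.5%).

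Differences of large size were mostly found in those libraries. A log2 fold change over 1 in size, whatever the p, was seen for 372 genes higher (1.55%) and 1922 lower (8.01%) at 100 mg/kg. Where the mean count reached 10 or more, it was seen for 6 genes higher (0.0369%) and 842 lower (5.18%). Of these 842 genes, 787 (93.5%) had their highest value in mouse 17 and 42 in mouse 16, and in 653 mouse 17 exceeded the next vehicle-treated mouse by over 10 times. A fit without mouse 17 kept 59 of the 842 below -1 and placed 547 of them above 1. The 6 genes that were higher were Siglech, Npas2, Mnd1, Ccdc7a, Gm12503 and 4930455H04Rik.

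Mature neutrophil genes were lower in mean at 100 mg/kg in all 10 of 10 list members, with a median log2 fold change of -0.38 beside -0.01 over all genes tested, and 6 had an unadjusted p under 0.05 (1.9% of all genes had this in the same direction). None passed the adjusted test. On a log2(CPM + 1) scale the mean of the 10 genes was 4.61 ± 0.0904 (SD, n = 6) at 100 mg/kg, with a lowest, median and highest mouse of 4.48, 4.60 and 4.73. In vehicle-treated mice it was 4.95 ± 0.203 (SD, n = 6), with 4.66, 4.91 and 5.23. The groups overlapped in 1 vehicle-treated mouse, mouse 16, which lay below 2 mice at 100 mg/kg (mice 7 and 8), and mouse 17 was the highest of all.

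Among them, Cxcr2, the receptor for the chemokines that draw neutrophils out of the bone marrow and into tissue, ranged from 54.0 to 75.0 CPM (median 68.2) at 100 mg/kg and from 76.3 to 118 CPM (median 81.7) with vehicle. The groups did not overlap, and the log2 fold change was -0.48 (standard error 0.13, unadjusted p = 0.00372 by edgeR). Mmp9, the gelatinase of the tertiary granules, ranged from 37.5 to 48.8 CPM (median 44.4) at 100 mg/kg and from 50.0 to 70.9 CPM (median 55.8) with vehicle, again without overlap (-0.41, standard error 0.10). Over all genes, 31 (0.129%) were lower and 15 (0.0625%) higher without overlap between the groups.

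S100a8 and S100a9 encode the 2 subunits of calprotectin, the abundant calcium- and zinc-binding protein of the neutrophil cytosol. S100a8 ranged from 44.4 to 78.1 CPM (median 63.5) at 100 mg/kg and from 69.5 to 160 CPM (median 85.8) with vehicle, and S100a9 from 71.4 to 116 CPM (median 96.3) and from 99.3 to 244 CPM (median 122). Their log2 fold changes were -0.61 (standard error 0.20) and -0.53 (0.21), and mouse 17 gave the highest value of both. Without mice 9 and 17 they were -0.36 (unadjusted p = 0.0236 by edgeR) and -0.25, the latter without an unadjusted p under 0.05. Csf3r, the receptor for granulocyte colony-stimulating factor, and Mmp8, the neutrophil collagenase, had log2 fold changes of -0.35 each, with standard errors of 0.13 each. Retnlg (-0.28), Fpr1 (-0.27), Il1r2 (-0.41) and Ly6g (-0.20), a surface protein found on mouse neutrophils, did not reach an unadjusted p under 0.05.

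The list kept all 10 members lower without mice 9 and 17 (median -0.32, 4 members with an unadjusted p under 0.05, 1.98% of all genes in that direction), and without mice 9, 16 and 17 (median -0.37, 6 members, 1.56%), a choice added after the data were seen. With libraries scaled by total counts, which moved the median of all genes from -0.01 to 0.08, all 10 were still lower (median -0.23), but only 1 had an unadjusted p under 0.05 (0.812% of all genes). Neutrophil granule genes, transcribed in the bone marrow before release, had no common direction with the mature list: 7 of 8 tested were higher in mean (median 0.29). This direction rested on mouse 11, which had a summed level of 54.0 CPM against 18.8 to 32.7 CPM in the other mice at 100 mg/kg. Without mouse 11 the median was -0.06, without mouse 16 it was 0.46, and within even-numbered mice it was -0.17. The exception was Lcn2, the siderophore-binding lipocalin that liver also makes. It ranged from 2.89 to 6.62 CPM (median 5.02) at 100 mg/kg and from 5.21 to 35.6 CPM (median 8.73) with vehicle, with the highest value in mouse 17, and its log2 fold change was -1.40 (standard error 0.43) with all mice and -0.77 without mice 9 and 17.

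**Figure D2:**
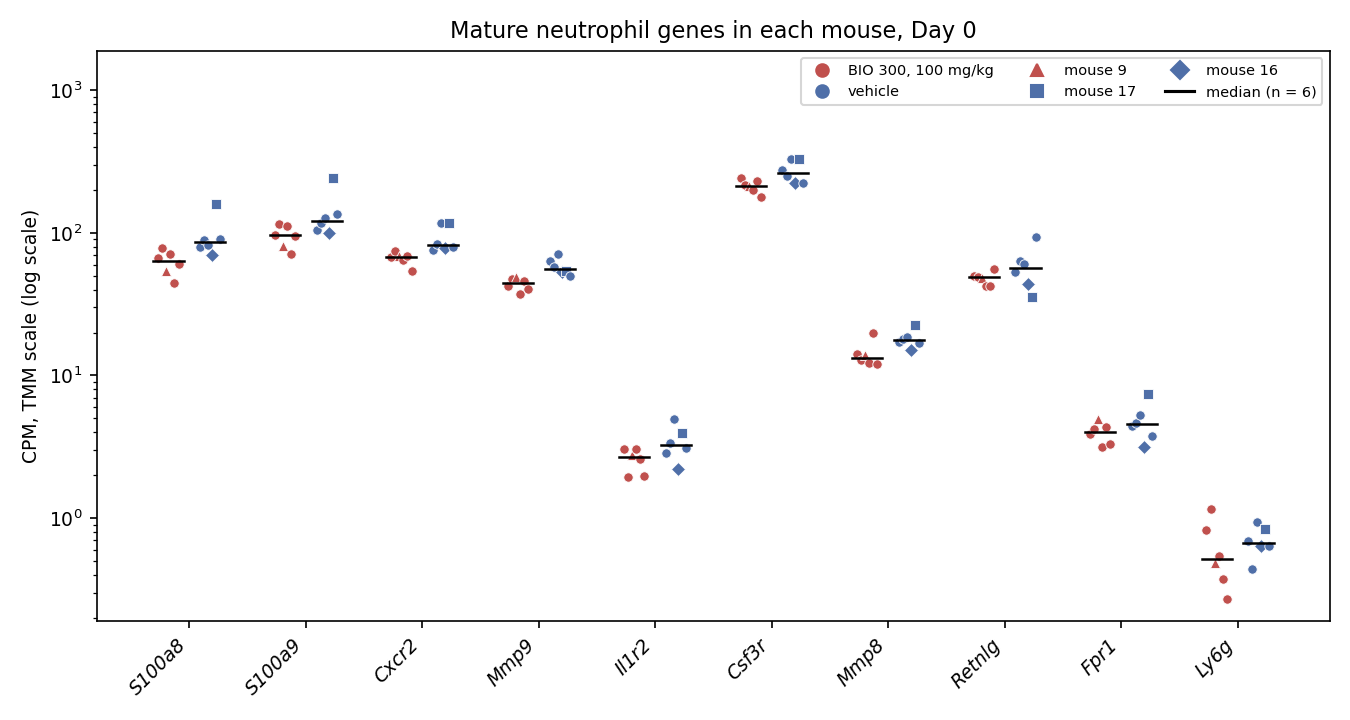
CPM (log scale) of the 10 mature neutrophil genes in each mouse, ordered by log2 fold change, with the median of the 6 mice per group as a bar. The median at 100 mg/kg is the lower of each pair, without overlap of the mice for Cxcr2 and Mmp9, and mouse 17 is the highest vehicle-treated mouse for S100a8 and S100a9.

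The genes with the lowest p were also mostly lower at 100 mg/kg. Crispld2, a secreted protein that binds lipopolysaccharide (ENSMUSG00000031825, chromosome 8, 119992438 to 120052793), ranged from 0.695 to 1.23 CPM (median 0.920) at 100 mg/kg and from 1.70 to 3.07 CPM (median 2.23) with vehicle. The difference was -1.36 on the log2 scale with a standard error of 0.20 (adjusted p = 0.368 by edgeR), and -1.39 without mice 9 and 17. Rab44, a Rab family GTPase of blood cells, ranged from 6.10 to 7.99 CPM (median 7.15) against 9.15 to 11.4 CPM (median 10.5), for a log2 difference of -0.57 ± 0.09 (standard error, adjusted p = 0.397 by edgeR). Rab11fip1, an adaptor of endosome recycling, ranged from 41.4 to 49.8 CPM (median 43.0) against 51.8 to 65.6 CPM (median 59.6), for a log2 difference of -0.43 ± 0.07 (standard error, adjusted p = 0.519 by edgeR). None of these 3 genes overlapped between the groups. The genes of this ranking were picked by their p, so a lack of overlap among them is no separate support. Over all genes 0.129% were lower without overlap.

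Of the remaining 7 of the 10 genes with the lowest p and a mean of at least 1 CPM, 6 were lower and did not overlap either, and Mmp9 is described above. Cd101, an inhibitory surface protein that marks mature neutrophils, ranged from 15.3 to 18.0 CPM at 100 mg/kg and from 18.1 to 28.3 CPM with vehicle (log2 fold change -0.45, standard error 0.10). Nlrp3, the sensor of an inflammasome that processes interleukin 1, ranged from 12.3 to 15.9 CPM and from 16.7 to 22.1 CPM (-0.38, 0.09). Arg2, the mitochondrial arginase, had a log2 fold change of -0.48 (0.10), and Dhrs9, a retinol dehydrogenase, of -0.72 (0.16). The remaining gene was Serpinb10, an intracellular serpin of blood cells, which was higher in mean. It ranged from 13.7 to 26.4 CPM (median 18.5) at 100 mg/kg and from 9.35 to 14.3 CPM (median 10.4) with vehicle, and the log2 fold change was 0.76 (standard error 0.16) with overlap. Il1f9, the gene of interleukin 36 gamma, was the sixth of the genes that were lower, with a log2 fold change of -0.68 (0.17). Outside this ranking, Junb, an AP-1 transcription factor, did not overlap between the groups either (-0.27, 0.07). Atf3, of the same immediate early list, was also lower with an unadjusted p under 0.05, and ran from -0.42 to -0.29 without each mouse in turn. Il1b, the gene of interleukin 1 beta, had -0.44 (0.15), and -0.26 without mice 9 and 17. Members of the same lists also had an unadjusted p under 0.05 the other way: Ccl4, a chemokine of the inflammatory list, had 0.72 (0.26), and Egr3, an immediate early transcription factor like Junb, had 0.34 (0.12).

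Fabp3, the fatty acid-binding protein of heart, muscle and brown fat and the other gene DESeq2 called, ranged from 0.122 to 0.553 CPM (median 0.305) at 100 mg/kg and from 0.399 to 2.14 CPM (median 1.63) with vehicle. The groups overlapped through mouse 18, the lowest vehicle-treated mouse. Its log2 fold change was -2.12 (standard error 0.42, unadjusted p = 0.000218 by edgeR) and -2.28 without mice 9 and 17, and mouse 16 had the highest value.

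**Figure D3:**
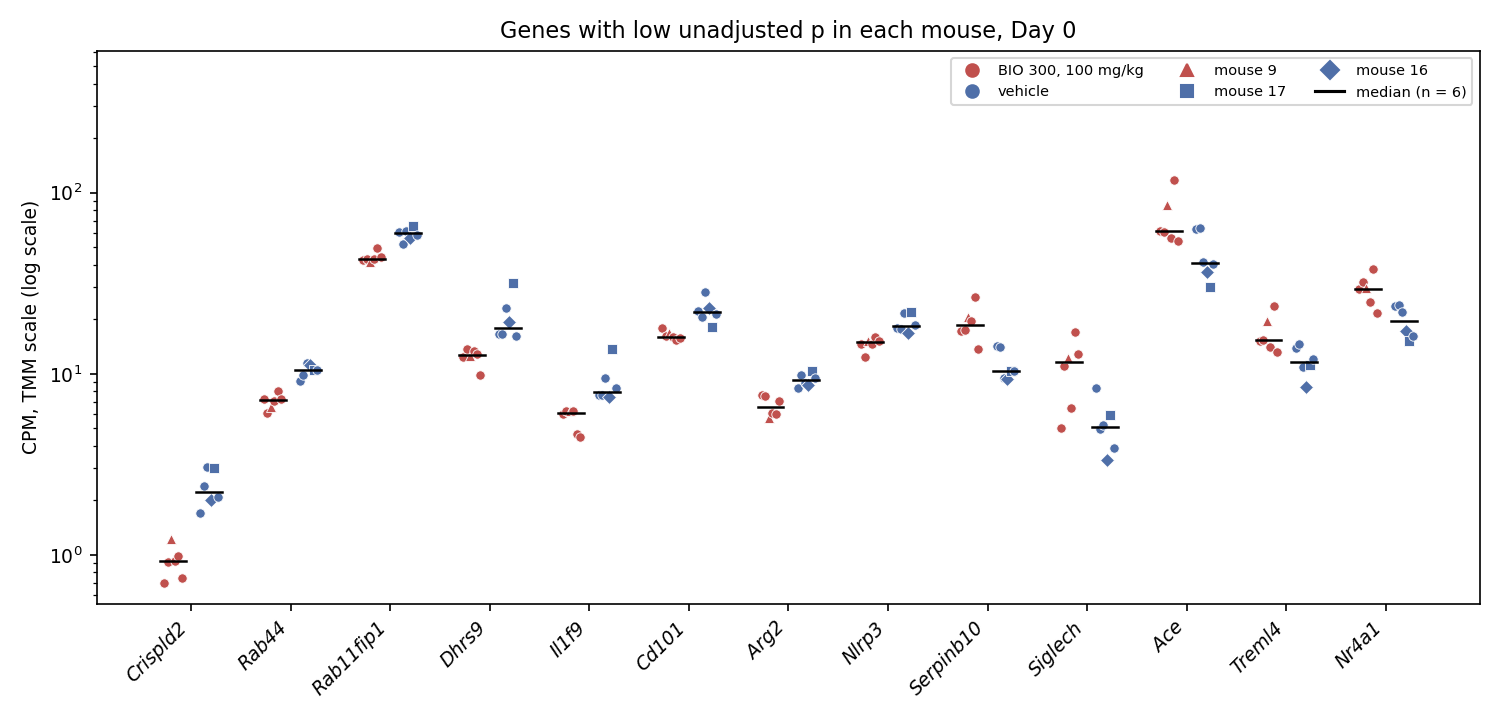
CPM (log scale) of 13 genes with a low unadjusted p in each mouse, with the median of the 6 mice per group as a bar. The first 8 genes, from Crispld2 to Nlrp3, are lower at 100 mg/kg without overlap, and the last 5, from Serpinb10 to Nr4a1, are higher in mean with overlap.

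Monocyte genes were displaced the other way in mean. Of 15 members, 10 were higher, with a median log2 fold change of 0.30, and 3 had an unadjusted p under 0.05, all higher (1.13% of all genes). These 3 were Nr4a1, the nuclear receptor that patrolling monocytes need, and Treml4 and Ace, which are also known from that type. Nr4a1 ranged from 21.7 to 38.1 CPM (median 29.5) at 100 mg/kg and from 15.3 to 24.1 CPM (median 19.6) with vehicle, and the log2 fold change was 0.57 (standard error 0.16). Treml4 ranged from 13.1 to 23.6 CPM (median 15.3) and from 8.42 to 14.6 CPM (median 11.6), a log2 fold change of 0.51 (0.16). Ace, angiotensin-converting enzyme, ranged from 54.0 to 118 CPM (median 61.1) and from 30.3 to 64.1 CPM (median 40.8), a log2 fold change of 0.66 (0.24).

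In all 3 genes mouse 11 was the highest and the groups overlapped. Among the other patrolling markers, Cx3cr1 had a log2 fold change of 0.32, Adgre4 of 0.36 and Fcgr4 of 0.21, and of the classical markers Ly6c2 had 0.58 and Ccr2 0.39, none with an unadjusted p under 0.05. The 5 members that were lower in mean went down to -0.30, also without an unadjusted p under 0.05. F13a1, among the 3 highest of the list, ran from -0.25 to 0.09 without each mouse in turn. On the log2(CPM + 1) scale the list averaged 4.98 ± 0.398 (SD, n = 6) at 100 mg/kg against 4.78 ± 0.189 (SD, n = 6) in the vehicle group. Mice 9 (5.28) and 11 (5.66) lay above all vehicle-treated mice (4.49 to 5.03), and the other 4 mice at 100 mg/kg lay between 4.71 and 4.77. Without mice 9 and 17 the same number of members, 3, had an unadjusted p under 0.05 (1.56% of all genes), and without mice 9, 16 and 17 it was 1 (1.18%). The mature neutrophil level minus the monocyte level in the same mouse ran from -1.08 to -0.0012 at 100 mg/kg and from -0.17 to 0.45 with vehicle, with mouse 13 as the only vehicle-treated mouse below 0. Mice 11 (-1.08) and 9 (-0.66) were the lowest. Minus the B cell level it ran from -2.96 to -2.45 at 100 mg/kg and from -2.87 to -1.66 with vehicle. Minus the T cell level it ran from -1.46 to -0.85 and from -1.17 to 0.44, so these 2 contrasts overlapped as well.

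Of 8 dendritic cell genes, all 8 were higher in mean (median 0.23), and Siglech was the only one with an unadjusted p under 0.05. Siglech, a lectin receptor of plasmacytoid dendritic cells, ranged from 5.03 to 17.1 CPM (median 11.6) at 100 mg/kg and from 3.35 to 8.31 CPM (median 5.09) with vehicle. In 4 of the 6 treated mice the level exceeded that of every vehicle-treated mouse, and the log2 fold change was 1.03 (standard error 0.30, unadjusted p = 0.00421 by edgeR) with all mice and 1.01 without mice 9 and 17. Ccr9 (0.27), which plasmacytoid cells also carry, and Xcr1 (0.07), the receptor of cross-presenting dendritic cells, overlapped.

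None of 15 B cell, 20 T cell, 12 NK cell and 10 MHC class II genes had an unadjusted p under 0.05 with all mice. The B cell list averaged 7.27 ± 0.184 at 100 mg/kg against 7.21 ± 0.249 in the vehicle group as mean log2(CPM + 1), with the SD over 6 mice in each. Cd74, the invariant chain of MHC class II, had a log2 fold change of 0.03 and Igkc, the kappa light chain constant region, of 0.10. The T cell list averaged 5.74 ± 0.309 and 5.67 ± 0.450 (SD, n = 6 in each), where mouse 17 was far below all others at 4.79. The median of the log2 fold changes was 0.05 over all 12 mice and -0.16 without mice 9 and 17, when all 20 members were lower in mean and 2 had an unadjusted p under 0.05 (1.98% of all genes). With total counts all 20 T cell genes were instead higher in mean (median 0.20), none with an unadjusted p under 0.05. Their median was 0.46 within odd-numbered mice and -0.37 within even-numbered mice. The NK cell list went from 0.27 to 0.03 without mice 9 and 17, with mouse 9 the highest (4.22) and mouse 17 the lowest (2.84) of the 12. Of 11 basophil and eosinophil genes, Siglecf, an eosinophil lectin receptor, had an unadjusted p under 0.05 (-0.47, standard error 0.18), with 3.78 to 5.29 CPM at 100 mg/kg and 3.87 to 8.73 CPM with vehicle.

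**Figure D4:**
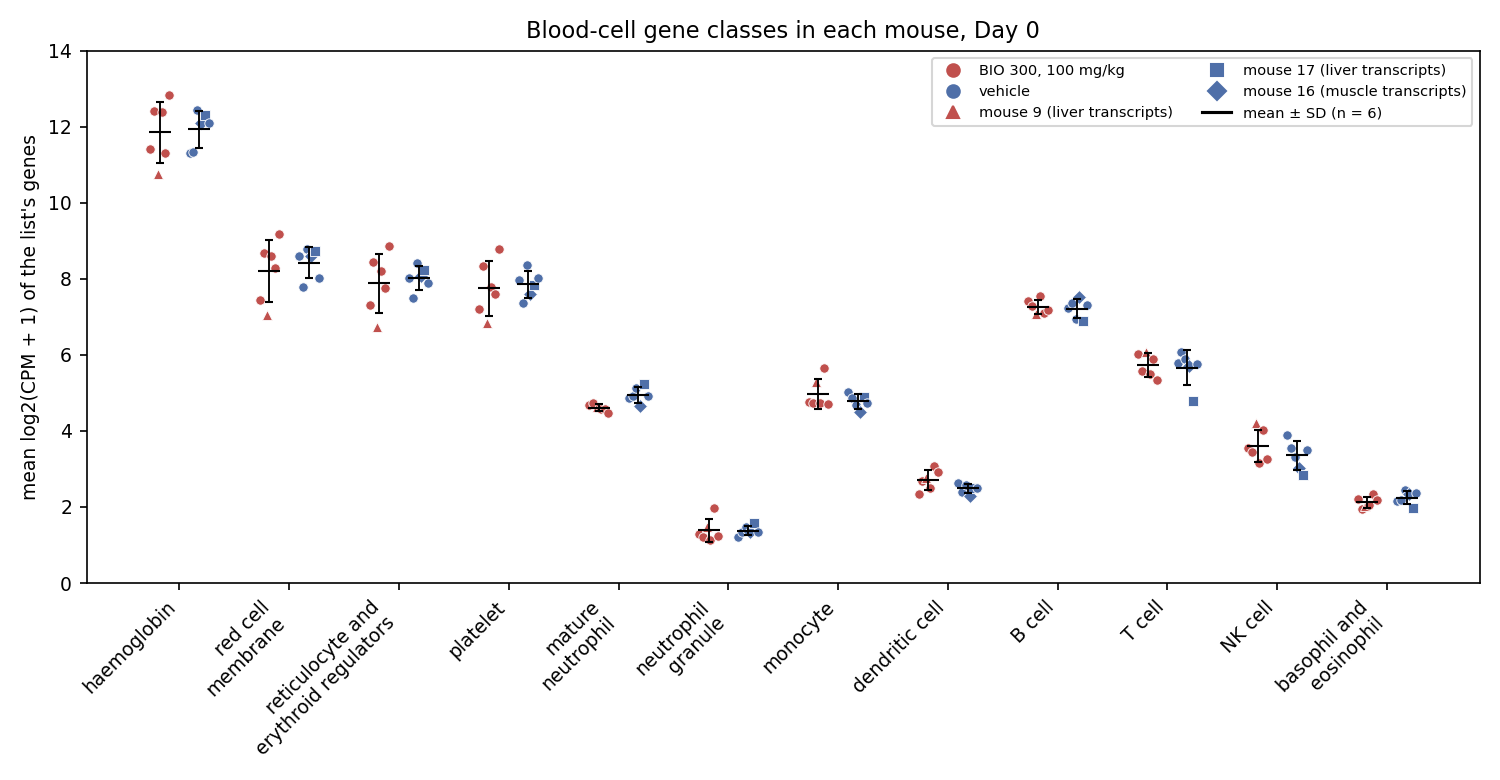
Mean log2(CPM + 1) of the genes of 12 blood-cell lists in each mouse, with the mean ± SD of the 6 mice per group. For mature neutrophil genes mouse 16 is the only vehicle-treated mouse within the range at 100 mg/kg, and red cell and platelet genes spread more widely at 100 mg/kg than with vehicle.

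Red cell and platelet genes differed more among the mice at 100 mg/kg than between the groups. None of the 4 haemoglobin, 8 haem synthesis, 12 red cell membrane, 14 reticulocyte and 13 platelet genes had an unadjusted p under 0.05. The red cell membrane list, which holds the band 3 anion exchanger Slc4a1 and the spectrins, averaged 8.21 ± 0.805 at 100 mg/kg against 8.42 ± 0.407 in vehicle-treated mice (log2(CPM + 1), SD over 6 mice in each). At 100 mg/kg mouse 9 was the lowest (7.05) and mouse 12 the highest (9.18), and the even-numbered mice 8, 10 and 12 (8.60 to 9.18) lay above the odd-numbered mice 7, 9 and 11 (7.05 to 8.29). With vehicle the order was mostly the opposite: odd-numbered mice 13, 15 and 17 lay at 8.60 to 8.77 and even-numbered mice 14, 16 and 18 at 7.79 to 8.60. They overlapped only through mouse 16, which lay just above mouse 13. The haemoglobin genes, which carry oxygen, took 5.42% to 14.9% of the counts at 100 mg/kg and 6.47% to 11.3% with vehicle. At 100 mg/kg they split by animal number as the membrane list did, with 12.4 to 12.8 in the even-numbered and 10.8 to 11.4 in the odd-numbered mice on the log2(CPM + 1) scale.

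Within odd-numbered mice only (3 against 3), the median log2 fold change of the red cell membrane list was -1.01, and within even-numbered mice it was 0.62. Both medians also take in the vehicle-treated mice, in which odd numbers mostly had the higher level of this list. Platelet genes, among them the chemokine Ppbp and the integrin Itga2b, gave -0.81 and 0.70, and haemoglobin genes -0.89 and 0.69. Mature neutrophil genes gave -0.44 and -0.27, the same direction in both. What animal number stands for is not stated in the labels, and its part in these values was not tested. At 100 mg/kg the TMM scaling factor fell as the red cell membrane level rose, from 1.58 (mouse 9) to 0.649 (mouse 12). With vehicle it lay between 0.833 and 1.22. CPM are divided by this factor, which widens the spread of red cell genes. Haemoglobin genes thus summed to 34380 to 203400 CPM at 100 mg/kg, beside 5.42% to 14.9% of the unscaled counts.

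**Figure D5:**
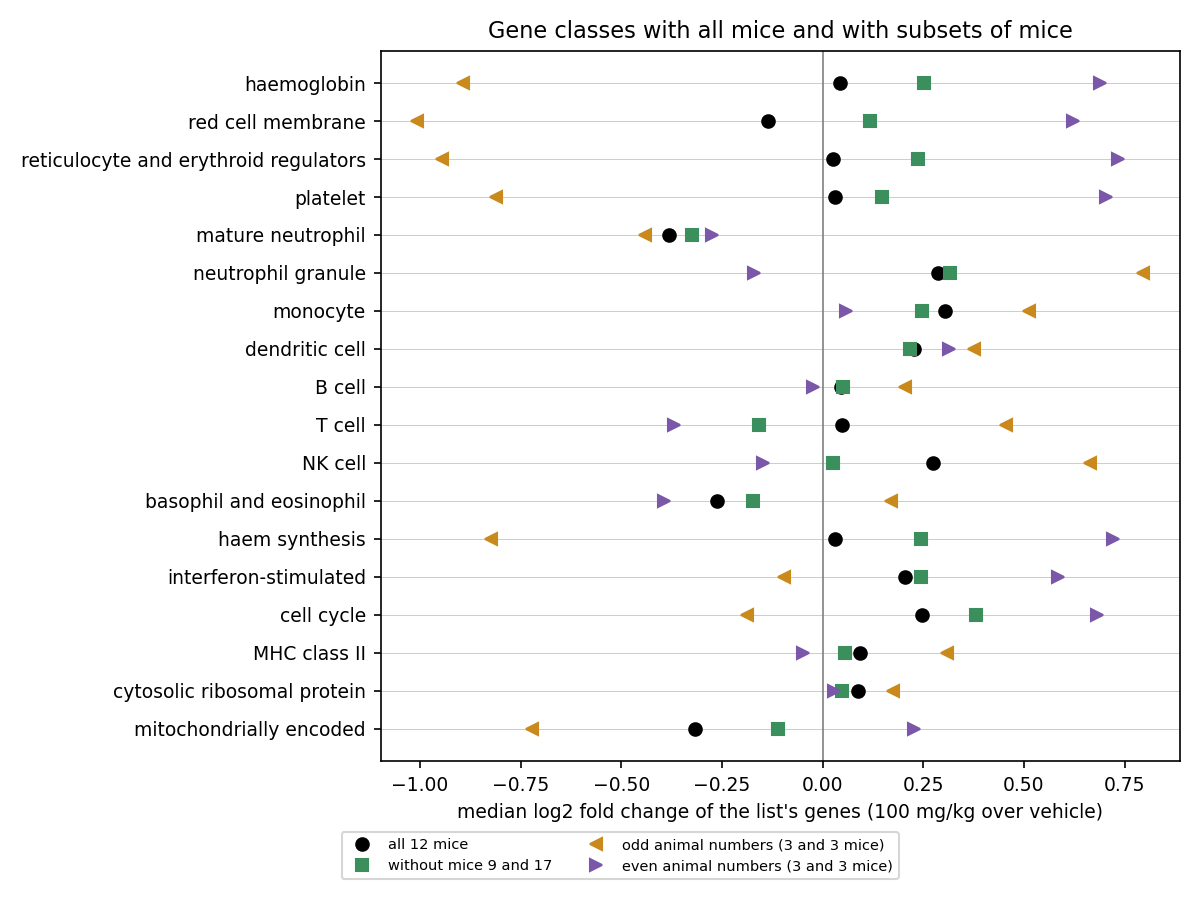
Median log2 fold change (100 mg/kg over vehicle) of 18 gene lists with all 12 mice, without mice 9 and 17, and within odd or even animal numbers (3 against 3 mice each). Red cell and platelet lists lie on opposite sides of 0 in odd and even mice, while the mature neutrophil list lies below 0 and the dendritic cell list above 0 in all 4 fits.

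Among programmes, all 19 cell cycle genes were higher in mean at 100 mg/kg (median 0.25), and 5 had an unadjusted p under 0.05 (1.13% of all genes in that direction): Pcna, the sliding clamp of DNA polymerase, and the replicative helicase subunits Mcm2, Mcm5, Mcm6 and Mcm7. Pcna ranged from 26.3 to 36.2 CPM (median 28.1) at 100 mg/kg and from 20.1 to 26.8 CPM (median 24.3) with vehicle, and the log2 fold change was 0.30 (standard error 0.10). The list level was highest in mouse 12 (4.71) and lowest in mouse 9 (3.58), the mice with the highest and lowest red cell levels, whose part in the difference was not tested. Without mice 9 and 17, 4 members had an unadjusted p under 0.05 (1.56% of all genes), with total counts 1 (beside 0.55% of all genes), and within odd-numbered mice the median was -0.19.

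Of 21 interferon-stimulated genes, 20 were higher in mean (median 0.21) and only Ifi44 had an unadjusted p under 0.05, with 2.35 to 10.3 CPM at 100 mg/kg and 2.57 to 4.33 CPM with vehicle. Mouse 10 carried the highest list level (5.23) and mouse 7 the lowest (3.79), both at 100 mg/kg. The direction of the median rested on mouse 10: without it the median was -0.05, and within odd-numbered mice it was -0.10. Without mice 9 and 17, 3 members had an unadjusted p under 0.05 (1.56% of all genes). Of 79 cytosolic ribosomal protein genes, 77 were higher in mean by a median of 0.09 on the log2 scale, none with an unadjusted p under 0.05.

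Genistein binds oestrogen receptors, and the authors name receptor beta as its target, for which no value is given here. Of 10 listed genes of receptors and coregulators, 8 were tested. None had an unadjusted p under 0.05: Esr1, oestrogen receptor alpha, had a log2 fold change of -0.43 (3.36 and 4.53 CPM in mean), and the coactivators Ncoa1, Ncoa2 and Ncoa3 had -0.11, -0.13 and -0.07. None of 14 NRF2 and aryl hydrocarbon receptor genes and none of 12 p53 target genes had an unadjusted p under 0.05 either. The clock gene Npas2 was higher in mean at a low level, with 0.601 to 1.83 CPM at 100 mg/kg and 0.102 to 0.687 CPM with vehicle (log2 fold change 1.41, standard error 0.43). Of 10 heat shock genes 2 had an unadjusted p under 0.05, both lower (1.9% of all genes), and 1 did without mice 9 and 17 (1.98%). Hsp90aa1, a cytosolic chaperone, had a log2 fold change of -0.39 (0.15), and Hspb1 ran from -2.95 to -1.99 without each mouse in turn. Mt1, a metallothionein that was at 14.0 CPM in mouse 17 and at most 1.18 CPM elsewhere, had -2.69 (1.07).

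Genes of other solid tissues also varied with the mouse. Of 6 smooth muscle genes, Acta2 and Des were lower with an unadjusted p under 0.05, and of 7 endothelial genes Emcn was (1.9% of all genes). Without each mouse in turn they ran from -0.58 to -0.37, from -6.20 to -1.54 and from -2.97 to -1.46. Mouse 16 had the highest Des and mouse 17 the highest Emcn. All 8 adipocyte genes were lower in mean at 100 mg/kg (median -2.14), and Fabp4, Adipoq and Lep had an unadjusted p under 0.05 (1.9% of all genes in that direction). Fabp4, the fatty acid-binding protein of fat cells, was at 1.89 to 10.8 CPM at 100 mg/kg (median 4.32) and 1.52 to 25.8 CPM with vehicle (median 14.8), and was lowest of all in mouse 18. Without mice 9 and 17, 6 of the 8 had an unadjusted p under 0.05 (1.98% of all genes). Without mouse 16 none did, although all 8 were still lower in mean (median -1.43). Without mice 9, 16 and 17 all 8 were lower (median -1.93), 3 of them with an unadjusted p under 0.05 (1.56% of all genes). Myh4, the heavy chain of fast muscle fibres, reached 35.5 CPM in mouse 16, with 0.102 CPM as the highest value of the other 11 mice, and Acta1, skeletal actin, reached 29.8 CPM with 0.339 CPM as the next value. Both were chosen after their values were seen. Ucp1, the uncoupling protein of brown fat, likewise chosen afterwards, was at 9.06 to 20.9 CPM in 5 vehicle-treated mice and 0.0399 CPM in mouse 18, and at 100 mg/kg it was at 10.0 CPM in mouse 9, at 2.17 CPM in mouse 12, at 1.88 CPM in mouse 11 and at 0 in the other 3.

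The other doses on Day 0 were compared with the same 6 mice at 100 mg/kg, so these comparisons share samples with the one above. Between 100 and 200 mg/kg, 0 of 23665 genes were DEGs (0% called, 1197 or 5.06% with an unadjusted p under 0.05, 0 by DESeq2). Crispld2, on the scale of the 36 mice, averaged 0.883 ± 0.184 CPM at 100 mg/kg, 1.42 ± 0.928 at 50 mg/kg, 1.87 ± 0.546 at 200 mg/kg and 2.29 ± 0.543 in vehicle-treated mice (SD, n = 6 in each). Mmp9 averaged 42.2 ± 4.29, 41.8 ± 2.88, 39.4 ± 8.96 and 56.1 ± 7.49 CPM in the same order, and Cxcr2 63.9 ± 6.82, 64.5 ± 9.69, 73.2 ± 18.0 and 88.9 ± 19.3 CPM. Siglech averaged 10.4 ± 4.25, 7.40 ± 2.77, 6.34 ± 1.24 and 5.08 ± 1.69 CPM. Directly compared, 100 and 200 mg/kg gave log2 differences of -1.08 for Crispld2 and 0.71 for Siglech, each with an adjusted p of 0.840 by edgeR.

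Between 100 and 50 mg/kg, edgeR called 0 of 24323 genes (0% called), with 0.0544 as the lowest adjusted p, and 5455 genes (22.4%) had a p under 0.05 before adjustment. DESeq2 called 1148, and edgeR called 1040 without the liver-rich mice 1 (50 mg/kg) and 9. All 12 red cell membrane genes (median 1.67) and all 13 platelet genes (median 1.09) had an unadjusted p under 0.05 and were higher at 100 mg/kg, beside 13.8% of all genes. In the other direction 15 of 20 T cell genes (median -0.36) were lower, beside 8.65%, and none of the 10 mature neutrophil genes had an unadjusted p under 0.05 (median -0.03). Total counts moved the median of all genes from -0.02 to -0.60, where all 12 red cell membrane genes still had an unadjusted p under 0.05 (median 0.91, beside 2.97% of all genes), no platelet gene did (median 0.32), and 8 mature neutrophil genes did with lower values (median -0.62, beside 41.9% of all genes).

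The effect of 100 mg/kg on Day 1 (48 h after dosing ended, in other mice) was set against the Day 0 effect in a fit of 24 mice. The 2 effects differed for 10890 of 25908 genes (42%), with 4073 (15.7%) higher and 6817 (26.3%) lower on Day 1 relative to Day 0. All 13 platelet genes were called higher (median difference 3.01), and all 15 B cell (-1.46) and all 20 T cell genes (-1.80) lower. Of the mature neutrophil genes 3 of 10 were called higher, among them S100a8 (1.93, standard error 0.26) and S100a9 (1.73, 0.27), with means of 73.5 and 129 CPM in vehicle-treated mice and 174 and 280 CPM at 100 mg/kg on Day 1, whereas Cxcr2 (0.10) and Mmp9 (0.22) were not called. Without the liver-rich mice 18 of the 20 T cell genes were called lower (23.9% of all genes), and 14.7% of all genes were called higher. With total counts, which moved the median of all genes from -0.37 to -1.83, all 13 platelet genes were still called higher, beside 3.52% of all genes, and all B cell and T cell genes lower, beside 56.4% of all genes. No mature neutrophil gene was then called higher, and the 5 of 10 called lower are no larger a share than that of all genes. Crispld2 gave a difference of 1.96 between the 2 effects (standard error 0.43, adjusted p = 0.00052 by edgeR). Its Day 1 level was 0.994 ± 0.425 CPM in vehicle-treated mice and 1.46 ± 0.601 CPM at 100 mg/kg (SD, n = 6 in each). The fit of Day 0 alone had a log2 fold change of -1.36, with means of 2.37 CPM with vehicle and 0.916 CPM at 100 mg/kg. The Day 1 vehicle level was thus below the Day 0 vehicle level.

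Among called genes whose mean reached 10 CPM in 1 group or more, the 10 with the largest differences included products of liver and fat. Saa1 (8.01), an acute-phase protein, Mup12 (8.23), a major urinary protein, Pck1 (5.58), the enzyme that commits to glucose synthesis, Sardh (4.36) and Gpd1 (4.39) were called higher on Day 1 relative to Day 0. On Day 1, mice 37 and 39 at 100 mg/kg and mouse 29 with vehicle also carried at least 10 hepatocyte genes above 10 CPM, whose part in these values was not tested. The small RNA genes Gm24245 (4.19) and Gm25732 (4.06) were called higher as well, and Vasn (-4.13), A130071D04Rik (-4.04) and Gm43197 (-4.00) lower.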

How the data were processed

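RNAseq of whole blood was analysed in 36 of the 60 mice: the 12 compared here and the 24 of the 50 and 200 mg/kg Day 0, vehicle Day 1 and 100 mg/kg Day 1 groups. The authors deposited raw counts for each gene. The submitters' processing notes name Trimmomatic 0.36, STAR 2.5.2b, Subread 1.5.2 and GRCm38, and the annotation release is not given in the sources used here. The labels name poly(A) selection, whereas the methods name stranded total RNA with ribosomal and globin RNA depletion. The authors' own results (fold changes and p-values) were deposited as well and were not used. Of 49315 gene IDs 48970 had a symbol, and 0.0349% of counts lay on genes without one. Coordinates are from a GENCODE annotation of GRCm38.

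Genes with at least 10 summed counts were fitted with edgeR 4.0.16 (limma 3.58.1, R 4.3.3) by glmQLFit and glmQLFTest after TMM scaling, with Benjamini-Hochberg adjustment over all genes tested. DEGs were called at an adjusted p under 0.05 where the log2 fold change also exceeded 1 in size, and standard errors were derived from the fold change and the F statistic. DESeq2 1.42.0, other scalings and filters, subsets of mice and odd or even animal number were alternatives. The steps were tested on simulated data. No libraries were duplicates. Replicates are separate mice, and the edgeR p-values set the difference between groups against the spread between them. The mice were housed 3 per cage, and the cage is not given in the labels and was not modelled. The total counts above limit the precision of genes with few counts, and the spread between mice enters the standard errors of all genes. The members and the gene lists were chosen with earlier results of these data known. Genes were named where they were DEGs (for the Day 1 comparison the 10 with the largest fold change among those whose mean reached 10 CPM in any group), among the 10 with the lowest p and a mean of at least 1 CPM, among the 3 highest of a list (6 for hepatocytes) or list members with an unadjusted p under 0.05. Further list members named for context were chosen after their values were seen.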

Additional observations from a re-analysis of the deposited data

Results flagged for a closer look

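Within each group of 6 mice, the highest or lowest mouse was compared with the others by Dixon's criterion, which chance alone passes in about 1 in 20 independent, normally distributed groups. The groups here share mice and genes, and the genes were picked for a low p or from the hepatocyte list. The counts that follow therefore cannot be set against that rate. Of 86 groups of list levels and library measures 12 passed, and of 98 groups over 49 genes 29 did.

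Mouse 17 (vehicle) stood apart in the T cell level (4.79, the lowest) and was the highest in the levels of the circadian clock (3.96), hepatocyte (9.27), endothelial (2.90) and intestinal epithelium (1.41) lists, all as mean log2(CPM + 1). It was also the highest in the share of mitochondrially encoded counts (0.850%) and of hepatocyte counts (1.94%). Among genes it was the highest for Alb (7590 CPM), Apob (2910), Serpina3k (1730), Cyp3a11 (1510), Fga (1030), Cps1 (937), S100a9 (244), S100a8 (160), Lcn2 (35.6), Mt1 (14.0), Il1f9 (13.7) and Emcn (1.39).

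Mouse 9 (100 mg/kg) was the highest in the hepatocyte (6.81) and intestinal epithelium (1.03) levels and in the mitochondrial (0.791%) and hepatocyte (0.639%) shares. It was the highest for Alb (1280 CPM), Apob (372), Serpina3k (350), Cyp3a11 (339), Cps1 (183), Fga (89.9), Des (0.312) and Lep (0.168). Mouse 16 (vehicle) had the lowest total count (15100000, rounded) and the highest Adipoq (9.06 CPM), Des (5.49) and Lep (2.43).

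The remaining mice at 100 mg/kg that stood apart were mouse 11, highest for Rab11fip1 (49.8 CPM), Pcna (36.2) and Mmp8 (19.9), mouse 12, highest for Mcm7 (35.8) and lowest for Dhrs9 (9.88), and mouse 8, lowest for Nlrp3 (12.3). The effect of 100 mg/kg differed between Day 1 and Day 0 for 10890 genes by the interaction test of edgeR.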

How the results depend on the processing

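The count of 0 DEGs between 100 mg/kg and vehicle was unchanged in every alternative but DESeq2, which called 2, and without any mouse in turn (0 to 0). The 726 genes with an unadjusted p under 0.05 became 327 with total counts, 431 with filterByExpr, 2103 in odd-numbered and 2889 in even-numbered mice, and 624 to 1410 without each mouse in turn, the highest without mouse 9. The 842 genes lower by over 1 on the log2 scale became 539 with total counts, 282 with filterByExpr, 75 without the liver-rich mice, 1328 in odd-numbered mice, 154 in even-numbered mice and 48 without mice 9, 16 and 17, and 55 (without mouse 17) to 943 (without mouse 9) without each mouse in turn. The 6 higher became 17 with total counts, 25 without the liver-rich mice, 88 and 155 in odd- and even-numbered mice, 31 without mice 9, 16 and 17, and 6 to 478 (without mouse 17) without each mouse in turn.

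Against 50 mg/kg, the count of 0 became 1148 with DESeq2, 737 with filterByExpr, 932 with odd or even animal number as a term and 1040 without the liver-rich mice. Without each mouse in turn it ran from 0 to 1315, and was above 0 without mouse 2 (757), mouse 7 (1059) or mouse 9 (1315). Against 200 mg/kg it remained 0, and the interaction count was 10179 to 11377 without each mouse in turn.

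Of 139 named genes, 86 changed sign in some alternative (315 of 3168 values), and none of these was among the 43 with an unadjusted p under 0.05. In 7 values the change exceeded the standard errors: Apob turned to 8.00, Fga to 7.43, Fabp2 to 6.04 and Ptprb to 0.96 without mouse 17 (without mouse 9 they were -8.85, -9.68, -8.03 and -2.49), Apob to 2.03 without the liver-rich mice and to 1.83 without mice 9, 16 and 17, and mt-Cytb to 0.33 in even-numbered mice. Alb, Cps1, Cyp3a11 and Serpina3k, whose values with all mice were below their standard errors, turned as far: they ran from -9.75 to 9.14, -8.77 to 9.99, -10.4 to 9.99 and -9.24 to 8.72, the lowest without mouse 9 and the highest without mouse 17. The cause was not tested for the changes with filter, scaling or animal number. Leaving out mice 9, 16 and 17 together was chosen after seeing the data. No paired analysis was possible because the groups share no animal numbers. The mouse with the lowest total count, mouse 16, limits the precision of its low-level genes.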
